A study of Mus musculus with 95 samples.

Results

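The comparison described here is liver gene expression after 1 day of tetracycline at 133 mg/kg body weight, set against the vehicle of the same day. Arrays were taken by their titles, and 8 of the 95 arrays of the study belong to it, 4 from treated mice (arrays 011, 057, 084 and 096) and 4 from vehicle mice (arrays 027, 034, 038 and 077). Tetracycline is an antibiotic that blocks bacterial ribosomes, and the study's title names steatosis, the build-up of fat in the liver, caused by it and by amiodarone and valproic acid. All mice were C57BL/6 males of 10 weeks and 21 to 27 g, gavaged with a compound or its vehicle, and no transgene or deletion is named for any group. The vehicle for tetracycline was purified water with ascorbic acid, while amiodarone and valproic acid were set against phosphate-buffered saline (PBS). Groups used for comparison were tetracycline 133 mg/kg on days 4 and 11 with their own vehicles (4 and 5 arrays per group), valproic acid at 500 mg/kg, amiodarone at 60 mg/kg and PBS on day 1 (4 arrays each). Values are log2 RMA values, on which a difference of 1 is a change of 2-fold, and all folds are relative to the other group on the same gene. A gene is called at a Benjamini-Hochberg adjusted limma p under 0.05, with the adjustment made across the 16464 genes tested.

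The liver makes cholesterol from acetyl-CoA through mevalonate, isoprenoids, squalene and lanosterol. The enzymes of this route are known to be transcribed together under the factor SREBP-2, which works with the CCAAT-binding factor NF-Y. Fatty acids are burned in mitochondria and peroxisomes by enzymes that the nuclear receptor PPARA is known to drive, or are stored as triglyceride in droplets coated by perilipins. Tetracyclines are also known to block the ribosomes of mitochondria, which descend from bacteria.

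The 8 arrays had medians from 3.09 to 3.13 and correlated at 0.991 to 0.996 with each other, and no 2 were identical. Treated array 057 had a mean correlation of 0.9941 with its own group and of 0.9947 with the vehicle arrays. All the other arrays had the higher mean with their own group. The liver label was borne out by 11 measured hepatocyte markers, with vehicle means from 7.93 to 13.82, of which limma called 0. Of 92 measured markers of 9 other cell types or tissues, 0 were called. An unadjusted p under 0.05 was found for 5 of them and for 11.3% of all genes. The median changes of these 9 lists ran from -0.05 to 0.04, and 40 of the 92 markers lay below the array median in both groups. In whole liver, fewer cells of a type and less RNA per cell cannot be told apart. The p-values and standard errors rest on the spread within groups, pooled over all 95 arrays of the study and not taken from these 8 alone. Whether every array stands for a mouse of its own is not stated in the labels, and that spread may therefore be technical.

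Tetracycline changed 107 of 16464 genes (0.65% called), 54 higher (0.328%) and 53 lower (0.322%), while 1867 (11.3%) had an unadjusted p under 0.05, of which 995 were higher (6.04%) and 872 lower (5.3%). Changes were small, with a median of 0.48 for genes called higher and -0.48 for genes called lower. Of the called genes, 6 rose by more than 2-fold and 2 fell by more than 2-fold. All treated arrays lay on the same side of all vehicle arrays for 94 of the 107, 46 higher and 48 lower, as for 6.87% of all genes (3.68% higher and 3.19% lower). When each array was centred on its median, 40 genes were called higher and 60 lower. Cholesterol synthesis held 4 of the 12 called genes that belong to any of 43 gene lists, and no other list had more than 2 called genes in a direction.

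**Figure D1:**
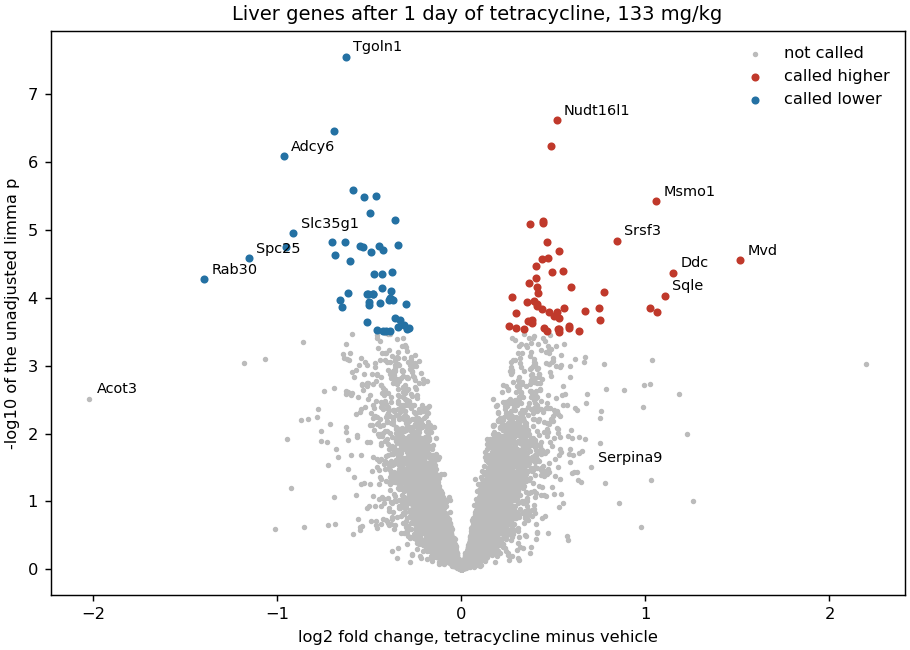
Each point is 1 of the 16464 genes, with the log2 fold change of tetracycline over its vehicle on the x axis and -log10 of the unadjusted limma p on the y axis. Red points are the 54 genes called higher and blue points the 53 called lower; Acot3 at -2.02 is labelled although it was not called.

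The calls depended on which vehicle was the control. For 95 of the 107 called genes the day 1 mean of ascorbic acid water lay outside the range of the 5 other vehicle group means. For 98 the tetracycline mean did. Over all genes these shares were 40.3% and 41.3%. A choice of genes by the difference of these 2 means favours both counts. With the PBS arrays of day 1 as the control, 27 genes were called. Among the 107 were 5 of them (Aldoc, Edrf1, Egflam, Gnl3 and Nxt1, named after their values were seen). An unadjusted p under 0.05 was found for 65 of the 107 and for 1561 of all 16464 genes, and 104 of the 107 had the same sign. The treated arrays are those on which the 107 were chosen, which favours the counts of 65 and 104. Of the 43 called genes that the naming rule took, 32 had a change over 1.5 times smaller against PBS, 1 (Abcb4) changed sign and 2 were called. With both day 1 vehicles as the control, 75 genes were called and 46 were among the 107. A direct comparison of ascorbic acid water with PBS on day 1 called 9 genes higher and 6 lower (0.0911% in all), of which 2 were among the 107. The largest called differences between these vehicles were those of the lectin gene Lgals4 and the retinoid enzyme genes Rdh9 and Retsat, higher with ascorbic acid water, and of Tff3, Serpina9 and Rsrp1, lower with it. Values against PBS are given below for most of the genes described.

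Of 13 measured genes of cholesterol synthesis, 4 rose (Mvd, Sqle, Msmo1 and Mvk), none fell, and 12 had a positive change, with a median of 0.54 against 0.01 over all genes. Treated and vehicle arrays did not overlap for 9 of the 13, all with treated arrays higher. Over all genes, 0.328% were called higher, 52.3% had a positive change and 3.68% had no overlap with treated arrays higher. The other 9 members did not pass the test, Stard4 alone having a negative change.

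Mvd (Entrez Gene 192156) encodes mevalonate diphosphate decarboxylase, the enzyme that makes isopentenyl diphosphate. Its log2 values were 5.31, 4.43, 5.19 and 4.84 in treated arrays 011, 057, 084 and 096, and 3.16, 3.44, 3.80 and 3.31 in vehicle arrays 027, 034, 038 and 077. Every treated array was above every vehicle array, and the mean rose 2.86-fold (1.52 ± 0.34 on the log2 scale, SE, n = 4 per group, limma adjusted p = 0.0142). Mvk (Entrez Gene 17855), the mevalonate kinase gene 2 steps upstream, had values of 4.77, 5.06, 5.29 and 5.22 after tetracycline and of 4.15, 4.46, 4.49 and 4.67 with vehicle. Array 011, the lowest of the treated arrays, was close to the highest vehicle array, and the rise was 1.56-fold (0.64 ± 0.17, limma adjusted p = 0.0486). Pmvk, which encodes the kinase between them, had a change of 0.43 ± 0.25 and was not called (limma adjusted p = 0.536).

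Sqle (Entrez Gene 20775) encodes squalene monooxygenase, the first oxygen-requiring enzyme of the route. Its values were 8.64, 8.03, 8.52 and 7.86 with tetracycline and 6.61, 7.28, 7.49 and 7.24 with vehicle. The groups did not overlap, with the widest spread among the vehicle arrays, and the rise was 2.15-fold (1.11 ± 0.27, limma adjusted p = 0.0280). Msmo1 (Entrez Gene 66234) encodes the methylsterol monooxygenase that trims the sterol nucleus. It stood at 10.53, 10.45, 10.95 and 10.68 with tetracycline and at 9.23, 9.72, 9.95 and 9.48 with vehicle. The groups did not overlap, and the rise was 2.09-fold (1.06 ± 0.21, limma adjusted p = 0.00685). Msmo1 was called without each of the 8 arrays in turn, while Mvd was called in 4 of these 8 fits (not without array 011, 027, 077 or 084), Sqle in 3 and Mvk in 1. None of the 4 was called against PBS or in a fit that blocked the arrays by runs of 24 sample numbers, which called 16 genes in all.

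The remaining members showed smaller or more variable differences. Lss, the lanosterol synthase gene, had values of 7.73, 7.15, 7.68 and 7.54 with tetracycline and of 6.24, 6.55, 6.57 and 6.62 with vehicle. These groups did not overlap, but the change of 1.03 ± 0.32 missed the threshold (limma adjusted p = 0.102). The squalene synthase gene Fdft1 (0.54), Nsdhl (0.44) and the sterol desaturase gene Sc5d (0.32) also had no overlap and were not called. Dhcr7 (0.59), which encodes the last reductase, and the demethylase gene Cyp51 (0.44) overlapped. Srebf2, the gene of SREBP-2 itself, had a change of 0.20, and Stard4, a cholesterol carrier gene, of -0.14, neither of them called.

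**Figure D2:**
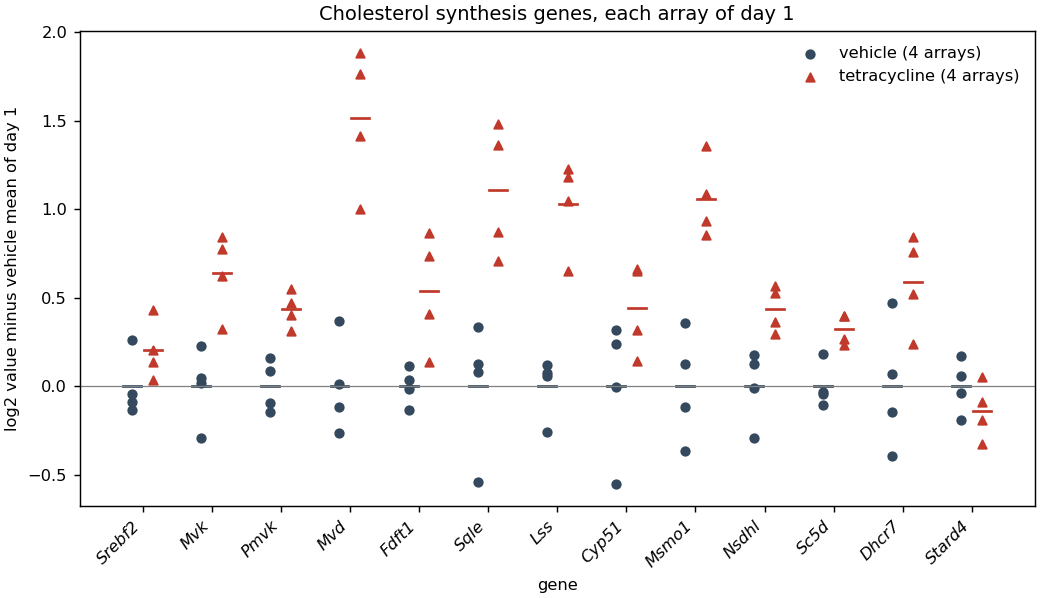
The y axis gives the log2 value of each array minus the vehicle mean of day 1 for the 13 measured genes of cholesterol synthesis, with circles for 4 vehicle arrays, triangles for 4 tetracycline arrays and short lines for group means. Mean differences ran from -0.14 for Stard4 to 1.52 for Mvd.

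The promoters of the called cholesterol genes are shown because NF-Y boxes are a known feature of this gene set. The windows run from 250 bases before to 50 bases after the start site in RefSeq (GRCm38.p6), and capitals mark the NF-Y box CCAAT, which reads ATTGG on the other strand. Of the 4 called genes, 3 had a window in this table.

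Mvd, chr8:122443373-122443672, minus strand: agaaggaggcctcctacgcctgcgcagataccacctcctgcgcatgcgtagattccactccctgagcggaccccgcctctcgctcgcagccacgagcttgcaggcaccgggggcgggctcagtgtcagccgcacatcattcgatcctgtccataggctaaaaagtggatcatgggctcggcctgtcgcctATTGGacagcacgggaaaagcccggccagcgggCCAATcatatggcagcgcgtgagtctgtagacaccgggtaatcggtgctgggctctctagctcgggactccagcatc
Msmo1, chr8:64733529-64733828, minus strand: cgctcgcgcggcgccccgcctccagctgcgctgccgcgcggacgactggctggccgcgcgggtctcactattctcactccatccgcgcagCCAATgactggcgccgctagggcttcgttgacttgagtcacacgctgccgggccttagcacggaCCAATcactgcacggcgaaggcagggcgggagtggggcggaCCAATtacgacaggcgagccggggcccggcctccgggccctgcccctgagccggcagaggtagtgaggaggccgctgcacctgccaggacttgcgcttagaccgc
Mvk, chr5:114444019-114444318, plus strand: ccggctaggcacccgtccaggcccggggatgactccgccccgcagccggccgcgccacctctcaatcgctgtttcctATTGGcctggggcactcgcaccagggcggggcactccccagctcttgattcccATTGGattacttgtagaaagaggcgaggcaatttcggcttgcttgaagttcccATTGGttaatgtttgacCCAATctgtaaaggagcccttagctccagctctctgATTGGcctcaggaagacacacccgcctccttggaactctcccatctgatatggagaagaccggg

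Mvd had 2 boxes, Msmo1 had 3 and Mvk had 5, counted on both strands. The 13 windows of the cholesterol genes come from 10 of the 13 measured genes, since a gene can have several. Over the measured cholesterol genes with a window, 10 of 13 windows (76.9%) held at least 1 box, against 37.4% of all 32851 windows, 53.3% of the windows of genes called higher and 40.3% of those called lower. The core of the sterol regulatory element, searched as TCACNCCAC on both strands, was in 0 of the 13 windows and in 1.24% of all windows. The E-box CACGTG was in 2 of the 13 windows (15.4%) and in 7.15% of all windows. A match is a string of letters and no evidence that a factor binds there, and both the NF-Y box and the sterol core were searched after the calls were seen. Motifs of ATF4 and of NRF2 (TGATGNAA and TGACNNNGC) were in 0% and 21.7% of the windows of genes called higher, against 3.97% and 12.4% of all windows.

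Mmab, a neighbour of Mvk that encodes an adenosyltransferase of vitamin B12 metabolism, rose as well and was looked up after its value was seen. Its values were 4.05, 3.87, 4.04 and 4.07 with tetracycline and 3.57, 3.48, 3.58 and 3.62 with vehicle, a change of 0.44 ± 0.10 (limma adjusted p = 0.0140). The groups did not overlap. The windows of Mmab and Mvk lie on opposite strands and share 259 of 300 bases, so the same 5 boxes fall in both.

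The median of the cholesterol genes was also positive against the other control, where the treated arrays are the same, and at later times. Against PBS the list median was 0.46 with 0 genes called, Mvd being at 1.22 (limma adjusted p = 0.110), Msmo1 at 0.69 (limma adjusted p = 0.170), Sqle at 0.57 and Mvk at 0.46. On day 4, with other treated and vehicle arrays, Mvd had a change of 1.21, Msmo1 of 0.60, Sqle of 0.45 and Mvk of 0.30. On day 11 the same genes had changes of 0.39, 0.54, 0.72 and 0.43. The list median was 0.45 on day 4 and 0.41 on day 11, again with 0 genes called. Taken per array as the median of the 13 genes relative to the day 1 vehicle mean, tetracycline arrays lay at 0.31 to 0.66 on day 1 and at 0.42 to 0.82 on day 4. Their vehicle arrays lay at -0.27 to 0.16 and at 0.07 to 0.31. The PBS arrays of day 1 lay at 0.05 to 0.41, and PBS array 050 was above treated array 057, so those groups overlapped. On day 11 the treated range of 0.27 to 0.79 overlapped the vehicle range of 0.01 to 0.32, through array 005 of the treated group and array 016 of the vehicle group.

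**Figure D3:**
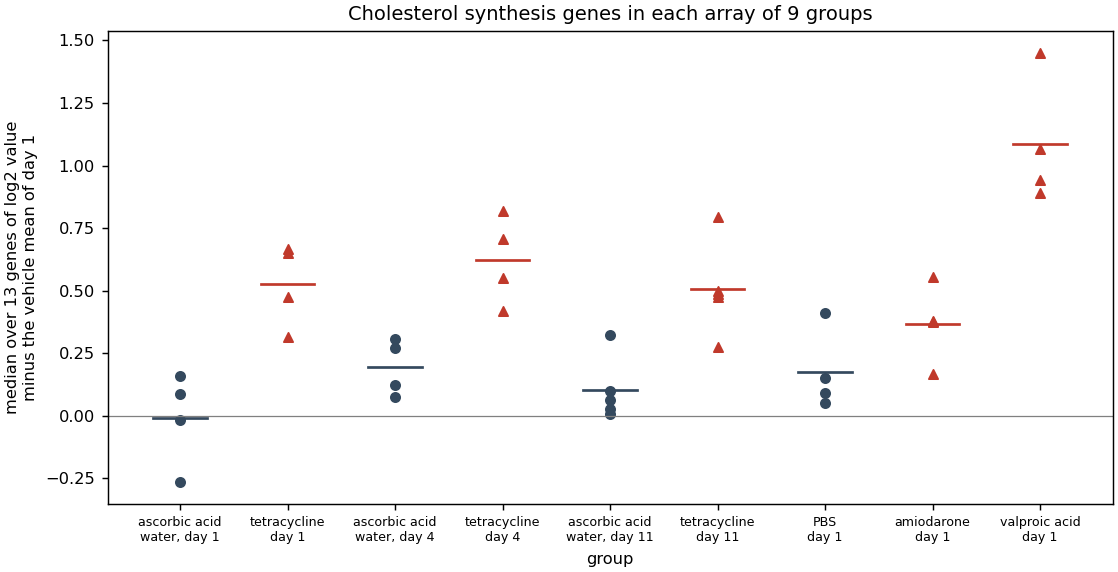
Each point is 1 array, placed on the y axis at the median over 13 cholesterol synthesis genes of its log2 value minus the mean of the day 1 ascorbic acid water arrays; circles are vehicle arrays, triangles are treated arrays and lines are group means. Treated arrays of days 1 and 4 lie above their own vehicle arrays, and valproic acid arrays lie highest, at 0.89 to 1.45.

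Genes of amino acid metabolism included 2 more rises. Ddc (Entrez Gene 13195) encodes aromatic L-amino acid decarboxylase, which makes dopamine and serotonin from their precursors. It had values of 8.78, 8.14, 8.78 and 8.31 with tetracycline and of 7.10, 7.63, 7.58 and 7.10 with vehicle, a 2.22-fold rise (1.15 ± 0.27, limma adjusted p = 0.0184) with no overlap. Against PBS its change was 0.37. Gpt2 (Entrez Gene 108682), the mitochondrial alanine aminotransferase gene, stood at 9.23, 9.15, 9.23 and 9.32 with tetracycline and at 8.75, 8.80, 8.97 and 8.63 with vehicle. The treated arrays were close to each other and all higher, a rise of 1.36-fold (0.45 ± 0.09, limma adjusted p = 0.00944), and against PBS it was at 0.21, not called. Of 20 measured genes of amino acid catabolism and the urea cycle, these 2 rose, 0 fell and 17 had a positive change, with a median of 0.11. Over all genes 0.328% were called higher, 0.322% were called lower and 52.3% had a positive change. Against PBS the list median was 0.04 with 0 genes called. On days 4 and 11 it was 0.14 and 0.01.

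Other genes with the largest rises came from several cell functions. Insc, a spindle orientation gene, rose 2.09-fold (1.06 ± 0.27), and the splicing factor gene Srsf3 rose 1.80-fold (0.85 ± 0.18). Against PBS they were at 0.22 and 0.28, and neither was called. Aldoc, an aldolase of glycolysis, rose by 0.75 ± 0.19 and was also called against PBS (0.81, limma adjusted p = 0.0366). It was called in only 2 of the 8 fits without 1 array. Oasl1, an interferon-induced gene, rose 1.72-fold (0.78 ± 0.19, and 0.44 against PBS, not called) as 1 of 13 measured interferon genes, whose median was 0.13 against the vehicle and -0.19 against PBS. Ifi35 (0.41) and Ddx58 (0.38), the second of which encodes a sensor of viral RNA, were also called and were named after their values were seen. Both are outside the interferon list, neither was called against PBS, and each was called in 2 of the 8 fits without 1 array. Smaller rises with no overlap included Nudt16l1 (0.52 ± 0.09, limma adjusted p = 0.00189), the small GTPase gene Rab23 (0.49), the pre-mRNA splicing gene Prpf38a (0.53), Alkbh7 (0.55), whose product is a mitochondrial dioxygenase, and Trub2 (0.52), which encodes a mitochondrial pseudouridine synthase. Against PBS these 5 genes were at 0.34, 0.33, 0.20, 0.31 and 0.30, and none was called. Mblac2 (0.60), Tstd3 (0.56), Abtb2 (0.67) and the transcription factor gene Mef2b (0.53) rose as well. Abtb2, Mef2b and Rab23 had vehicle means of 2.90, 2.78 and 2.89, below the array median, and Smarce1 one of 2.99, so that their changes start close to background.

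The largest fall among called genes was that of Rab30. Rab30 (Entrez Gene 75985), a small GTPase of the Golgi, had values of 3.34, 3.55, 3.93 and 3.47 with tetracycline and of 4.599, 4.482, 4.798 and 5.989 with vehicle. It fell to 0.380 of the vehicle level (-1.40 ± 0.33, limma adjusted p = 0.0209) with no overlap, and vehicle array 077 was highest. Against PBS, at a mean of 3.92, the change of Rab30 was -0.35. Tgoln1 (Entrez Gene 22134), a protein of the trans-Golgi network, had the smallest p of all genes. Its values were 6.63, 6.89, 6.90 and 6.54 with tetracycline and 7.44, 7.26, 7.19 and 7.59 with vehicle, a fall to 0.647 of the vehicle level (-0.63 ± 0.10, limma adjusted p = 0.000459). Its groups did not overlap, and the call held without each of the 8 arrays. It was lost in a fit of the 8 arrays alone and against PBS, where the change was -0.27 (limma adjusted p = 0.323).

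Adcy6 (Entrez Gene 11512) encodes an adenylyl cyclase, which makes cyclic AMP. It stood at 4.84, 5.04, 4.46 and 4.72 with tetracycline and at 5.51, 5.75, 5.97 and 5.70 with vehicle, and fell to 0.513 of the vehicle level (-0.96 ± 0.18, limma adjusted p = 0.00269). The groups were well apart, and Adcy6 was 1 of 9 genes called without each array in turn. Against PBS its change was -0.47 (limma adjusted p = 0.324). Slc35g1 fell by 0.91, the TWEAK receptor gene Tnfrsf12a by 0.65, the nuclear receptor gene Nr2c2 by 0.63, the CK2 catalytic subunit gene Csnk2a2 by 0.59 and Grpel2, a mitochondrial chaperone cofactor, by 0.66 on the log2 scale. Against PBS these 5 genes were at -0.53, -0.66, -0.16, -0.23 and -0.19, and none was called. Gnl3, a nucleolar GTPase gene, fell by 0.50 and was also called against PBS (-0.51, limma adjusted p = 0.0430). It was the only 1 of 18 measured genes of ribosome biogenesis to be called. Other falls were those of genes of nuclear proteins, among them Rbm33 (-0.70), an RNA-binding protein, Gtf2ird2 (-0.60), Thap11 (-0.53) and Zbtb41 (-0.49), the last a zinc finger protein. Heca (-0.69), the F-box gene Fbxl20 (-0.53), the peroxisomal membrane gene Pxmp4 (-0.51) and Brap (-0.50) fell as well. Against PBS these 8 genes were at -0.26, -0.29, -0.37, -0.36, -0.38, -0.25, -0.40 and -0.03, and none was called. No overlap was a condition for naming the 20 largest changes each way, and is not a separate observation about them.

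**Figure D4:**
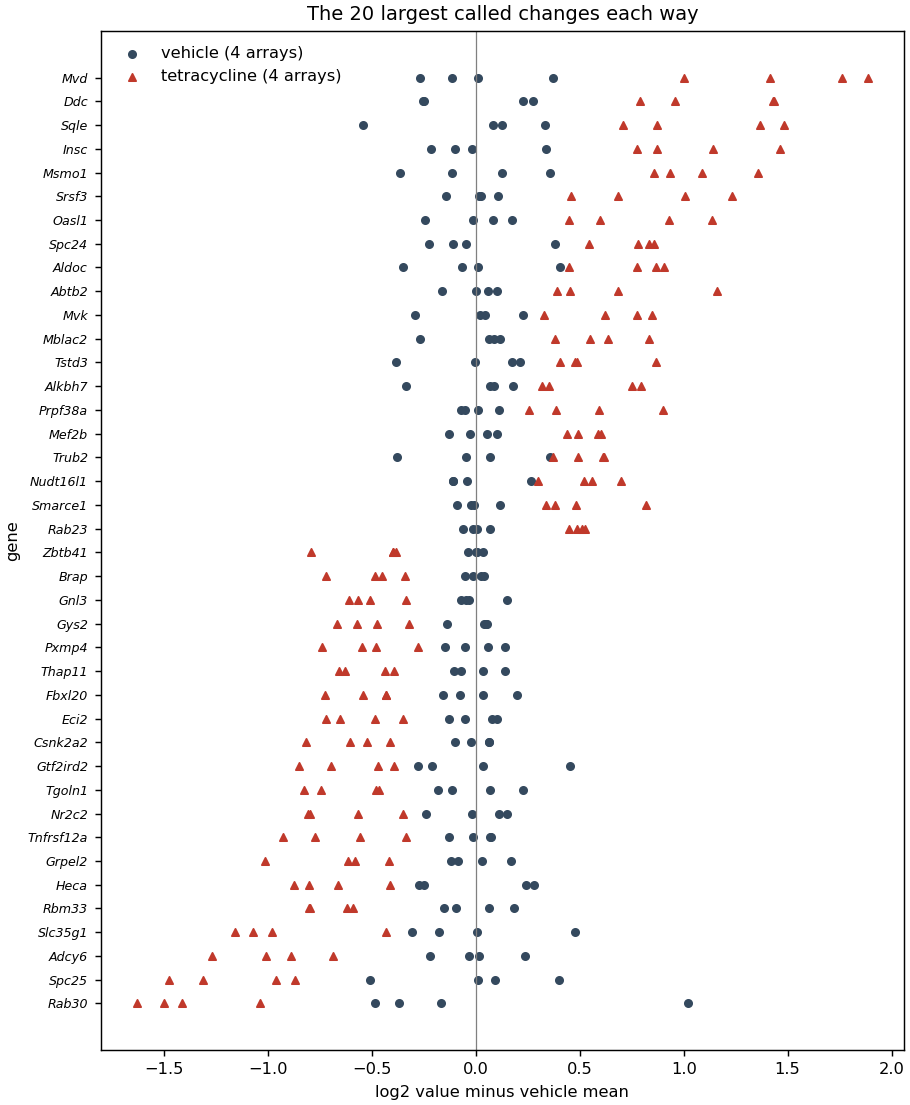
Rows are the 20 largest rises and the 20 largest falls among called genes with no overlap, predicted genes and clone names passed over. The x axis gives each array's log2 value minus the vehicle mean, with circles for 4 vehicle and triangles for 4 tetracycline arrays; mean changes run from -1.40 for Rab30 to 1.52 for Mvd.

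A pair of subunits of the kinetochore complex Ndc80, which ties chromosomes to the spindle, went opposite ways. Spc24 (Entrez Gene 67629) had values of 6.27, 5.98, 6.21 and 6.29 with tetracycline and of 5.38, 5.21, 5.81 and 5.32 with vehicle, a rise of 1.69-fold (0.75 ± 0.19, limma adjusted p = 0.0413). Spc25 (Entrez Gene 66442) had values of 5.22, 5.13, 4.78 and 4.62 with tetracycline and of 6.19, 5.59, 6.10 and 6.49 with vehicle, a fall to 0.449 of the vehicle level (-1.16 ± 0.26, limma adjusted p = 0.0140). Neither pair of groups overlapped. Against PBS the changes were 0.33 and -0.70, and neither was called. Of 19 measured cell cycle genes, 0 were called and 11 lay below the array median in both groups. An unadjusted p under 0.05 was found for 1 each way, and over all genes for 6.04% higher and 5.3% lower.

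Genes of fatty acid use gave few calls and mostly negative changes. Eci2 (Entrez Gene 23986), an enoyl-CoA isomerase of fatty acid oxidation, had values of 9.28, 9.58, 9.44 and 9.21 with tetracycline and of 10.01, 9.80, 9.88 and 10.03 with vehicle, and fell to 0.682 of the vehicle level (-0.55 ± 0.12, limma adjusted p = 0.0123). The groups did not overlap. Of 23 measured PPARA targets of peroxisomal and microsomal oxidation, Eci2 alone fell, 21 had a negative change and 0 rose, with a median of -0.31. Of 18 measured genes of mitochondrial fatty acid oxidation and ketogenesis, Eci2 again was the 1 call, with a median of -0.12 and 16 negative changes. The carnitine carrier gene Slc25a20 was just outside the threshold (-0.40 ± 0.11, limma adjusted p = 0.0505), and Cpt1a, the carnitine palmitoyltransferase of the outer membrane, was at -0.17. The thioesterase gene Acot3 had a large but variable difference, at 3.88, 5.99, 5.51 and 3.99 with tetracycline and 7.43, 6.11, 6.41 and 7.51 with vehicle, which was not called (-2.02 ± 0.66, limma adjusted p = 0.133).

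These values depended on the control group. Against PBS the median of the PPARA targets was 0.01 and that of mitochondrial oxidation 0.03, Eci2 was at -0.06, Acot3 at 0.26 and Acot1 at 0.01. The PPARA list was higher in ascorbic acid water than in PBS on day 1 by a median of 0.35. Per array, the treated list medians lay at -0.30 to -0.15 and the vehicle medians at -0.22 to 0.10, relative to the vehicle mean, and vehicle array 034 lay within the treated range.

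Storage and synthesis of fat showed 1 call. Plin2 (Entrez Gene 11520), the coat protein of lipid droplets in the liver, had values of 10.36, 10.35, 10.80 and 10.33 with tetracycline and of 11.17, 10.73, 11.30 and 11.11 with vehicle. It fell to 0.652 of the vehicle level (-0.62 ± 0.15, limma adjusted p = 0.0269), although treated array 084 was above vehicle array 034. Against PBS the change of Plin2 was -0.25 and was not called. Among 23 measured genes for lipid droplets or fatty acid uptake, Plin2 was the 1 that fell and 0 rose, with a median of -0.09; the droplet gene Cidec was at 0.01 and the fatty acid transporter gene Cd36 at -0.10. Of 20 measured genes of fatty acid and triglyceride synthesis, limma called 0, and the median was 0.09. With an unadjusted p under 0.05, 5 were higher and 3 lower, against 6.04% and 5.3% of all genes.

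Among those not called, Fasn, the fatty acid synthase gene, had values of 11.17, 9.91, 9.92 and 10.17 with tetracycline and of 9.03, 9.40, 9.57 and 9.21 with vehicle. All treated arrays were higher, led by array 011, but the change of 0.99 ± 0.31 did not pass (limma adjusted p = 0.103). Thrsp, a lipogenic regulator, was at 1.04 ± 0.30 (limma adjusted p = 0.0753), Scd1, the stearoyl-CoA desaturase gene, at -0.38. Of 20 measured genes of lipoprotein assembly and secretion, 0 were called and 2 lower and 1 higher had an unadjusted p under 0.05, with Mttp, the triglyceride transfer protein gene, at -0.13 and Apob, the structural protein of VLDL, at -0.21.

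Bile and glucose genes gave single calls. Abcb4, the phosphatidylcholine transporter of the bile canaliculus, fell to 0.744 of the vehicle level (-0.43 ± 0.11, limma adjusted p = 0.0486), and its change against PBS was 0.02. Cyp7a1, the rate-limiting enzyme of bile acid synthesis, had values of 9.35, 9.08, 8.17 and 8.35 with tetracycline and of 7.95, 7.55, 7.95 and 6.59 with vehicle. Its groups did not overlap, but the change of 1.23 ± 0.47 was not called (limma adjusted p = 0.232), and against PBS it was -0.01. Gys2, the liver glycogen synthase gene, had values of 9.01, 9.26, 8.92 and 9.11 with tetracycline and of 9.62, 9.64, 9.44 and 9.63 with vehicle. It fell to 0.703 of the vehicle level (-0.51 ± 0.13, limma adjusted p = 0.0426) with no overlap, and against PBS it was at -0.31, not called. Irs1, an adaptor of the insulin receptor, was at -0.64 and was not called (limma adjusted p = 0.0719).

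The gene lists of the mitochondrial protein machinery and of stress responses held 0 called genes, Grpel2 and Trub2, called above, being members of none of them. Of 32 measured genes of the mitochondrial ribosome and its translation, limma called 0, 26 had a positive change and 7 of them an unadjusted p under 0.05, with a median of 0.12. Mrps27, a small-subunit protein gene, was at 0.51 ± 0.15 (limma adjusted p = 0.0776). Over all genes 11.3% had an unadjusted p under 0.05, 6.04% higher and 5.3% lower, and 52.3% had a positive change. Against PBS the median of the mitochondrial ribosome list was 0.05 with 0 genes called. On days 4 and 11 it was -0.008 and 0.003. Lists of oxidative phosphorylation (22 measured), mitochondrial chaperones and proteases (13), the ATF4 response (25), NRF2 antioxidant enzymes (18), targets of CAR and PXR (21) and endoplasmic reticulum chaperones (20) had 0 called genes, and at an unadjusted p under 0.05 they had 0, 1, 2, 4, 2 and 4 genes. Within the ATF4 list, Atf4 was at 0.12, Ddit3 at -0.21, Trib3 at -0.28, Asns at 0.09 and Fgf21 at -0.38, both Asns and Fgf21 below the array median in both groups. Of 17 measured clock genes 0 were called, 4 lower had an unadjusted p under 0.05 and 15 were negative, with a median of -0.16, and the median against PBS was -0.0025. Lists of heat shock, immediate early, AHR, glucocorticoid, acute phase, p53, proteasome and lysosome genes had 0 called genes and medians from -0.10 to 0.08.

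**Figure D5:**
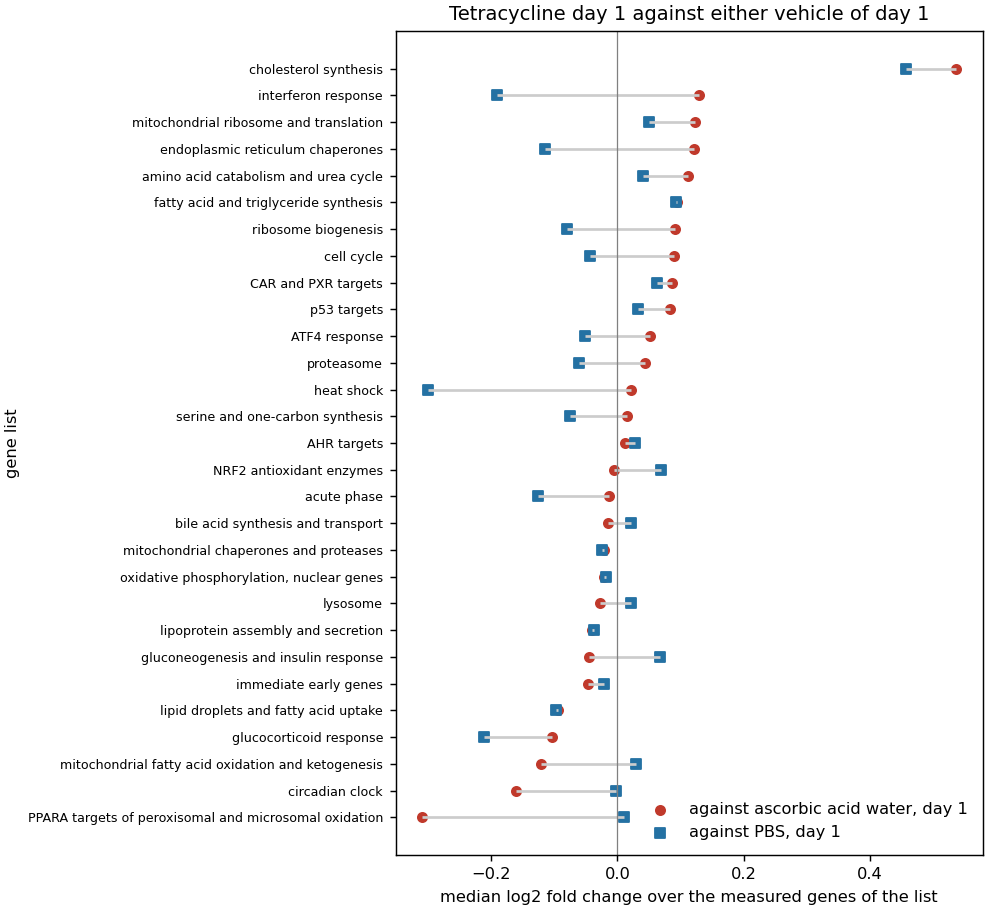
For each of the 29 lists of metabolism and responses, the x axis gives the median log2 fold change of its measured genes after 1 day of tetracycline, against ascorbic acid water (circles) or PBS (squares) of day 1. Cholesterol synthesis lies at 0.54 and 0.46, and PPARA targets at -0.31 and 0.01.

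The effect of tetracycline was then compared between days, each day against its own vehicle. Limma called 0 genes for tetracycline on days 4 and 11, where 1386 and 888 had an unadjusted p under 0.05. It also called 0 genes for the difference between the effects of day 4 and day 1 or of day 11 and day 1, with 1255 (7.62%) and 935 (5.68%) genes at an unadjusted p under 0.05. The 54 genes called higher on day 1 had a median change of 0.14 on day 4 and 0.14 on day 11, and the 53 called lower had medians of -0.14 and -0.11. These genes were chosen for their day 1 values. Of the 107, 88 had the sign of day 1 on day 4 and 96 on day 11, and 25 and 15 had an unadjusted p under 0.05, where 8.42% and 5.39% of all genes had one. Among them Tnfrsf12a was at -0.68 on day 4, Spc25 at -0.59, Rab30 at -0.58, Aldoc at 0.49 and Slc35g1 at -0.48.

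The day 1 effect was also set against those of valproic acid and amiodarone at their high doses, which shared no array with the tetracycline comparison. The doses differ between compounds. Each gene's spread was estimated in common for all comparisons, which favours calls of the same gene in several of them. Of the 107 genes, 56 were also called for valproic acid, for which 15.7% of all genes were called, 49 in the same direction and 7 in the opposite one. For amiodarone 3 of the 107 were called (0.796% of all genes). The difference between the effects of tetracycline and valproic acid was called for 999 genes (6.07%) and for 22 of the 107, and that between tetracycline and amiodarone for 116 genes (0.705%) and for 23 of the 107. The 107 were chosen on arrays that enter these differences, and each difference also holds that between the 2 vehicles.

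More cholesterol genes were called with valproic acid than with tetracycline. Limma called 11 of the 13 higher with it (7.99% of all genes) and 1 lower (7.73%), with a median of 0.89, while with amiodarone 0 were called and the median was 0.16. Mvd was at 1.66 with valproic acid and Sqle at 1.67, and the difference from tetracycline was not called for either (-0.15 and -0.57). The difference was called for 2 of the 13, Mvk, which was 0.74 lower in effect with tetracycline (limma adjusted p = 0.0475), and Sc5d, at 0.32 with tetracycline and -0.28 with valproic acid (limma adjusted p = 0.0459).

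The 7 genes with opposite effects of tetracycline and valproic acid included Spc24, which rose by 0.75 with the first and was at -1.39 with the second, a difference of 2.15 (limma adjusted p = 1.1e-08). Its partner Spc25 was lower with both, at -1.16 and -1.63. Gpt2 was at 0.45 and -0.42, a difference of 0.86 (limma adjusted p = 1.3e-06), and Gys2 was lower by more with valproic acid, at -0.51 and -1.67, a difference of 1.16 (limma adjusted p = 3.9e-06). Tgoln1 was at -0.08 with valproic acid and 0.24 with amiodarone, and its difference was called from both (-0.55, limma adjusted p = 0.00872, and -0.87, limma adjusted p = 7.3e-05). Lipogenic genes differed too, with Thrsp at 1.04 and -1.65 (difference 2.69, limma adjusted p = 2.5e-06) and Fasn at 0.99 and -0.61 (difference 1.60, limma adjusted p = 0.0120). Over all genes the largest called differences were those of Nrep, Rgs16 and Ugt2b38, higher in effect with tetracycline (4.32, 3.21 and 3.19), and of the acute phase gene Lcn2, the metallothionein gene Mt2 and the protease gene Prtn3, lower (-7.47, -6.75 and -5.47), none of which was called for tetracycline itself.

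Many of the called differences from amiodarone were in genes of fatty acid oxidation. The difference was called for 18 of 23 PPARA targets, which had a median of 0.66 with amiodarone and -0.31 with tetracycline, and for 10 of 18 genes of mitochondrial oxidation. Acot1 was at -1.18 with tetracycline and 2.93 with amiodarone (difference -4.10, limma adjusted p = 7.7e-09), and Acot3 and the hydroxylase gene Cyp4a14 differed by -4.66 and -4.63. Eci2 was at -0.55 and 0.58 (difference -1.13, limma adjusted p = 8.8e-06), Plin2 at -0.62 and 0.58 (difference -1.20, limma adjusted p = 0.000210), and Abcb4 at -0.43 and 0.37 (difference -0.79, limma adjusted p = 0.00170). Rab30 differed by -2.53 (limma adjusted p = 0.000388). In the other direction Serpina9, Rsrp1 and Ddc had the largest called differences, of 2.18, 1.52 and 1.47. For the PPARA targets the 2 vehicles differed by a median of 0.35, and what part of the contrast this makes up was not tested.

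Calls rested on few arrays. Of the 107, 9 were called without each of the 8 arrays in turn (Adcy6, Ccdc66, Csnk2a2, D030056L22Rik, Msmo1, Nudt16l1, Ppp2r2d, Tgoln1 and Thap11), and 74 were called in 4 or fewer of these 8 fits. The number of calls was 52, 182, 26 and 31 without treated arrays 011, 057, 084 and 096, and 49, 52, 121 and 18 without vehicle arrays 027, 034, 038 and 077. A fit of the 8 arrays alone called 12 genes, 9 higher and 3 lower, among them Mvd, Msmo1, Ddc and Adcy6. Of the other genes followed above, Gpt2 was called in 7 of the 8 fits without 1 array, Rab30, Spc25 and Eci2 in 5, Ddc in 4, Spc24, Plin2 and Gys2 in 2 and Abcb4 in 1.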

How the data were processed

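The log2 expression values were deposited by the authors and, per the submitters' processing notes, made with RMA; its version and the probe annotation are not given in the sources used here. Per the labels' protocols, RNA of the left lateral liver lobe was extracted with RNeasy columns and labelled with biotin. Tests covered 16464 of 17306 probe sets, each naming 1 gene; 842 without a symbol were left out, and 0 named several genes. All 16464 matched RefSeq.

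With all 95 arrays in 1 model of 21 group means, tests used limma 3.58.1 in R 4.3.3 (lmFit and eBayes, 74 residual degrees of freedom), and p-values were adjusted over all genes. The script was tested on simulated data. Figures used matplotlib 3.10.9 in Python 3.11.15. Named genes were the 20 largest called changes each way with no overlap, called members of 43 lists, the 3 largest called differences each way in 5 other comparisons, and 19 genes followed whatever their values. The members and lists were chosen with earlier results of these data known. The number of arrays limits the precision. Alternatives concerned controls, fit, filter, scaling and single arrays.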

Additional observations from a re-analysis of the deposited data

Results flagged for a closer look

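A single array lay far from the other 3 of its group for 5 of 148 gene and group values examined, where chance flags about 1 in 20. Mblac2 in vehicle array 027 stood at 4.24 and its nearest neighbour at 4.57. Gys2 in vehicle array 038 stood at 9.44, the lowest of its group, next to 9.62. Zbtb41 in tetracycline array 096 was at 4.68 and the nearest array at 5.08. Plin2 in tetracycline array 084 was at 10.80 while the nearest array was at 10.36. Serpina9 in tetracycline array 096 was at 2.42, against 3.81 in the nearest.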

How the results depend on the processing

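The 107 calls became 247 with array quality weights, 216 of 8177 genes without dim genes, 12 with only the 8 arrays, 16 with blocks of 24 sample numbers and 27 with the PBS control, and ran from 18 to 182 without single arrays. Against PBS, 18 of 74 named genes changed sign, among them Abcb4 (0.0172), which had been called, and Retsat (0.65), called against PBS and not against the vehicle; the cause was not tested. The called difference between vehicles (15 genes) became 30 with weights, 41 without dim genes, 0 with only its arrays and 0 with blocks, and 0 to 36 without single arrays (0 without array 027, 038 or 077 and 2 without 034 of ascorbic acid water, and 36, 7 and 5 when PBS array 025, 050 or 082 was left out). With only the arrays compared, tetracycline minus valproic acid fell from 999 to 605, tetracycline minus amiodarone from 116 to 71, and day 4 minus day 1 rose from 0 to 1. Without single arrays these were 858 to 1040, 71 to 144 (71, 72 and 76 without amiodarone arrays 045 and 001 and vehicle array 077) and 0 to 1, and day 11 minus day 1 stayed at 0. The ascorbic acid water arrays of all 3 days as control, chosen after seeing the data, gave 94 calls. Only 42 of them were among the 107, and 20 of the 43 named called genes stayed called. No paired analysis was possible because no sample number occurs in more than 1 group.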
